A study of Mus musculus with 4 samples.

Results

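The genes described here encode the kinases of the mitogen-activated protein (MAP) kinase cascades and the proteins that hold those cascades in check. They were taken from the count table by gene symbol: the numbered MAP kinases (Mapk), their activating kinases (Map2k), the kinases above those (Map3k and Map4k), the dual-specificity phosphatases (Dusp), and the Sprouty (Spry) and Spred genes. Symbols of 70 rows matched, and the 54 rows with 40 or more counts summed over all libraries were kept, of 35927 gene rows in all. Nearest to that limit, Dusp4 had 56 counts and was kept, and Dusp22 had 39 and was not. The cells were erythroid progenitors of the C57BL/6 mouse fetal liver at E13.5, sorted after propidium iodide staining as positive for CD71 and negative for TER119. Mutant embryos were Rcor1-/-; Rcor1 encodes the CoREST scaffold, which joins the demethylase Kdm1a to histone deacetylases. Control material mixed Rcor1+/+ and Rcor1+/- embryos in a proportion not given in the sources used here. There were 2 libraries of each group, biological replicates per the series' design text, and RNA of several livers was pooled for each library, so values of single embryos cannot be seen.

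MAP kinase cascades carry signals from receptors through tiers of kinases. A MAP4K or a small GTPase such as Ras engages a MAP3K, which phosphorylates a MAP2K, which phosphorylates a MAP kinase on a threonine and a tyrosine. The main branches end in the ERK, JNK and p38 kinases, and in blood progenitors the receptors for Kit ligand and erythropoietin both engage them. Dual-specificity phosphatases remove both phosphates, and several of their genes are themselves induced by ERK signalling. Sprouty and Spred proteins act higher up, between receptor and Raf.

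Library totals ran from 15053229 to 26892375 counts. Levels are given as CPM (counts of a gene per 1000000 counts of its library) on library sizes scaled by TMM (trimmed mean of M values), changes as log2 fold changes (mutant relative to control) ± standard error, and adjusted p as Benjamini-Hochberg values of edgeR's quasi-likelihood test over 13140 genes. A gene passed the test where adjusted p was below 0.05. Rcor1 had 160 and 175 CPM in controls against 77.9 and 78.9 in mutants (log2 fold change -1.09 ± 0.06, adjusted p = 4.6e-11); the sources used here do not give the part of the gene that the allele lacks. All 7 erythroid markers examined were present, among them Tfrc, which encodes CD71, Gata1, Klf1 and Kit. Their summed level was 4230 and 4343 CPM in controls and 3988 and 3863 in mutants. Within that sum a rise of Gfi1b, from 522 and 496 CPM in controls to 1405 and 1330 in mutants, offset in part the falls of 5 others. Markers of other cells were found at lower summed levels, higher in mutants. Hepatoblast genes summed to 915 and 903 CPM in controls and 1236 and 1252 in mutants, and megakaryocyte genes to 99.4 and 97.6 against 210.5 and 203. Granulocyte genes summed to 46.2 and 51.5 CPM in controls and 81.3 and 79.7 in mutants, macrophage genes to 16.1 and 16.2 against 23.6 and 22.8, endothelial genes to 9.42 and 9.72 against 19.6 and 19.1, and mesenchymal genes to 4.92 and 4.72 against 17.4 and 16.1. Mast cell genes summed to 0.156 and 0.275 CPM in controls against 2.72 and 2.73 in mutants. Of these only Cpa3 had enough counts to be tested, with 4 and 5 in controls against 71 and 41 in mutants. Lymphoid genes summed to at most 0.302 CPM in any library, and the mast cell gene Mcpt4 was at 0 counts in all libraries. The test called higher 5 of 8 hepatoblast, 2 of 7 macrophage, 4 of 6 megakaryocyte, 2 of 7 granulocyte, 1 of 4 mast cell, 2 of 5 endothelial and 5 of 6 mesenchymal genes, and it called lower the megakaryocyte gene Vwf (-0.59) and the granulocyte gene Elane (-0.87). Of all genes tested, 28.3% were called higher and 29.2% lower. Cpa3 and the mesenchymal genes Pdgfra, Lum and Postn passed the filter on low counts only through the mutant libraries, where they are high. Their calls are therefore only a description. Of the erythroid genes it called 1 higher (Gfi1b) and 5 lower, and Kit did not pass. The part of such cells in the results below was not tested, and in bulk RNA fewer cells of a type and less RNA per cell cannot be told apart.

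Of the 54 genes, 36 passed the test, where 57.5% of all genes did. Log2 fold changes ran from -0.37 to 0.20 among the MAP kinases. Among the dual-specificity phosphatases other than Dusp5 and Dusp4 they ran from -2.30 to 1.78. All 54 had also passed the filter on low counts. In the mutant progenitors 22 were higher, 14 were lower and 18 did not pass. Among all genes tested, 28.3% were called higher and 29.2% lower; among the 54 genes the shares were 40.7% and 25.9%. A rise of at least 2-fold was called in 9 of the 54 and a fall of that size in 1, where all genes gave 11.7% and 1.8%. Dusp5 and Dusp4, with 18 and 8 counts in controls, reached the limit of 40 counts only through the mutant libraries, where they are high, so their place among the risers is in part set by the choice of genes; of the other 52 genes, 20 were higher and 7 at least 2-fold higher. The median log2 fold change was 0.14 over the 54 genes and 0.01 over all genes. Levels of the 2 groups did not overlap for 47 of the 54 genes, against 77.9% of all genes. The split depended on the scaling: with library totals alone, which moved the median of all genes to 0.15, 29 of the 54 were higher and 9 lower, beside 38.9% and 19.4% of all genes.

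**Figure D1:**
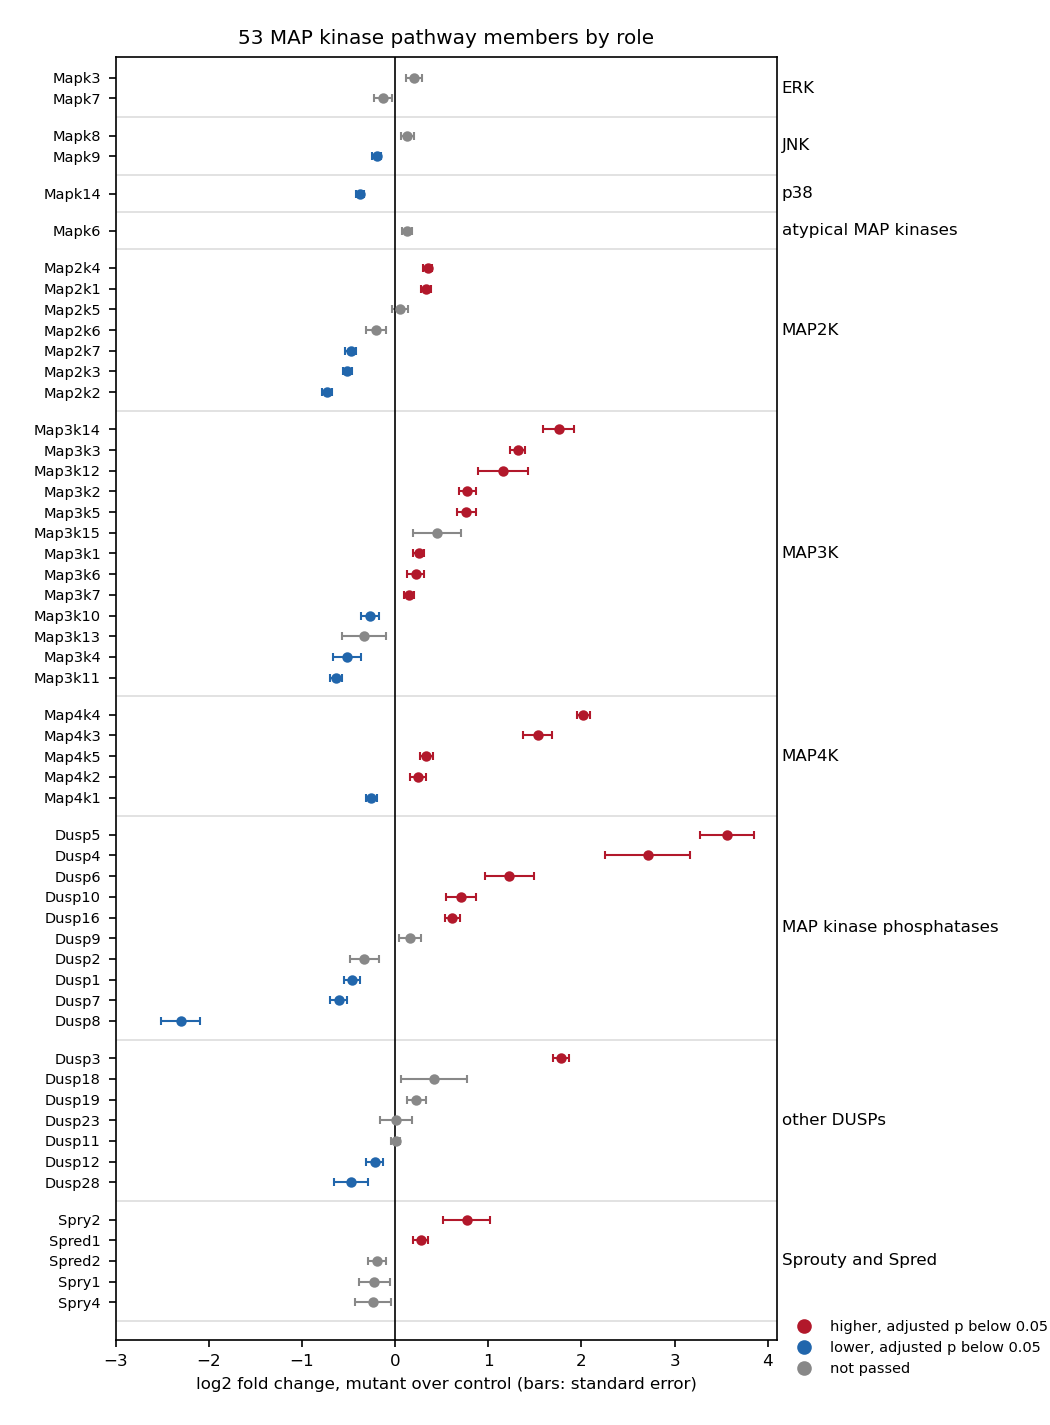
Mutant against control log2 fold changes of 53 of the 54 genes, grouped by role; points are the fitted values, bars the standard errors, red and blue mark genes that passed higher or lower, grey those that did not. The MAP kinases at the top sit close to 0, while the phosphatases run from -2.30 (Dusp8) to 3.57 (Dusp5). Dusp5 and Dusp4 reached the count limit only through the mutant libraries.

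The MAP kinases themselves had small fold changes, from -0.37 to 0.20. Of 7 genes with enough counts, 2 were lower (Mapk14 and Mapk9), none was higher and 5 did not pass. Of all genes tested, 28.3% were higher and 29.2% lower, so the share of falls was near that of all genes. Mapk3, which encodes ERK1, had 24.6 and 21.9 CPM in controls against 27.4 and 26.02 in mutants (log2 fold change 0.20 ± 0.09, adjusted p = 0.0555), with both mutant libraries above both controls. Mapk7, the gene of ERK5, had 24.7 and 20.96 against 20.8 and 21.1 CPM (log2 fold change -0.13 ± 0.09, adjusted p = 0.253), with overlapping groups; its fitted sign turned under library totals alone. Per kilobase of exon, Mapk3 stood at 10.3 ± 0.827 CPM in controls (SD, n = 2) and 11.8 ± 0.441 in mutants.

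Mapk14, which encodes p38 alpha, was the clearest change in this tier. It had 346 and 367 CPM in controls against 277 and 273 in mutants (log2 fold change -0.37 ± 0.05, adjusted p = 2.23e-06). Both mutant libraries lay below both controls, and under library totals alone the value was -0.24 (adjusted p = 0.000185). The other p38 genes, Mapk11, Mapk12 and Mapk13, had 22, 12 and 12 counts over all libraries and were not among the 54. Of the JNK genes, Mapk9 (JNK2) went from 160.4 and 161 CPM to 142 and 138 (log2 fold change -0.20 ± 0.05, adjusted p = 0.00214), and lost its call under library totals alone (-0.06, adjusted p = 0.303; range over all settings 7.59e-06 to 0.303). Mapk8 (JNK1) had 49.04 and 46.4 CPM in controls against 51.3 and 53.4 in mutants and did not pass (log2 fold change 0.13 ± 0.07, adjusted p = 0.13), and Mapk10, the JNK gene best known from neurons, had 3 counts in all. Per kilobase of exon in controls, Mapk9 had 23.7 ± 0.0184 CPM and Mapk8 4.17 ± 0.163. Mapk6, the gene of the atypical kinase ERK3, had 119 and 125 CPM in controls against 128 and 138 in mutants (log2 fold change 0.12 ± 0.05, adjusted p = 0.0606), and the other atypical genes Mapk4 and Mapk15 had 4 and 5 counts. The calls in this tier turned on the scaling: under library totals alone Mapk3 (0.34), Mapk8 (0.27) and Mapk6 (0.26) passed as higher. Mapk3 had 0.28 (adjusted p = 0.0168) without control replicate 1 and 0.11 (0.462) without control replicate 2. Mapk6 passed without control replicate 2 (adjusted p = 0.0455) and mutant replicate 1 (0.0453), and had 0.08 and 0.08 (0.313 and 0.384) without control replicate 1 and mutant replicate 2.

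In the MAP2K tier, which directly activates the MAP kinases, partners that share a target moved in opposite directions in the ERK and JNK branches. Of the 7 genes, Map2k1 and Map2k4 rose, Map2k2, Map2k3 and Map2k7 fell, and Map2k5 and Map2k6 did not pass. The shares over all genes were 28.3% higher and 29.2% lower. Map2k2, one of the 2 genes for the kinases of ERK (MEK2), had 402 and 360.3 CPM in controls against 238 and 222 in mutants (log2 fold change -0.73 ± 0.06, adjusted p = 3.62e-08). Map2k1, the gene of the other (MEK1), had 95.1 and 91.8 CPM in controls against 114 and 121 in mutants (log2 fold change 0.33 ± 0.05, adjusted p = 5.66e-05). For each gene the groups were well apart, and the directions were opposite.

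Ratios of counts within a library do not depend on how libraries are scaled to each other. The ratio of Map2k2 to Map2k1 counts was 4.22 and 3.93 in controls against 2.08 and 1.84 in mutants. Per kilobase of exon, Map2k2 and Map2k1 had 67.3 ± 5.15 and 27.5 ± 0.689 CPM in controls, and 40.6 ± 1.97 and 34.7 ± 1.37 CPM in mutants. On that scale, which rests on approximate exon lengths, the MEK genes were closer to each other in the mutant than in controls. A similar shift was seen for the kinases of JNK: Map2k4 (MKK4) rose from 209.6 and 207 CPM to 271 and 259 (log2 fold change 0.35 ± 0.05, adjusted p = 5.07e-06), and Map2k7 (MKK7) fell from 108 and 109 to 75.9 and 80.2 (log2 fold change -0.48 ± 0.06, adjusted p = 1.38e-06). Their ratio, Map2k4 over Map2k7, was 1.95 and 1.89 in controls against 3.57 and 3.23 in mutants. Among the kinases of p38, Map2k3 (MKK3) fell from 186 and 185 CPM to 132 and 128 (log2 fold change -0.51 ± 0.05, adjusted p = 9.54e-08), while Map2k6 (MKK6) had 13.3 and 14.7 in controls against 12.2 and 12.2 in mutants and did not pass (log2 fold change -0.20 ± 0.11, adjusted p = 0.114). The ratio of Map2k3 to Map2k6 was 13.9 and 12.6 in controls against 10.9 and 10.5 in mutants. Map2k5, which encodes the kinase of ERK5, had 33.1 and 35.2 CPM in controls against 37.7 and 32.9 in mutants, with overlapping groups (log2 fold change 0.06 ± 0.09, adjusted p = 0.595).

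For the JNK genes, the ratio of Mapk9 to Mapk8 was 3.27 and 3.46 in controls against 2.77 and 2.58 in mutants. None of the 4 ratios overlapped between groups. Levels of single genes did not overlap for 77.9% of all genes, and no such share was computed for ratios of other gene pairs. An exact permutation test of 2 libraries against 2 cannot go below p = 0.333, so the ratios are given without a test.

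**Figure D2:**
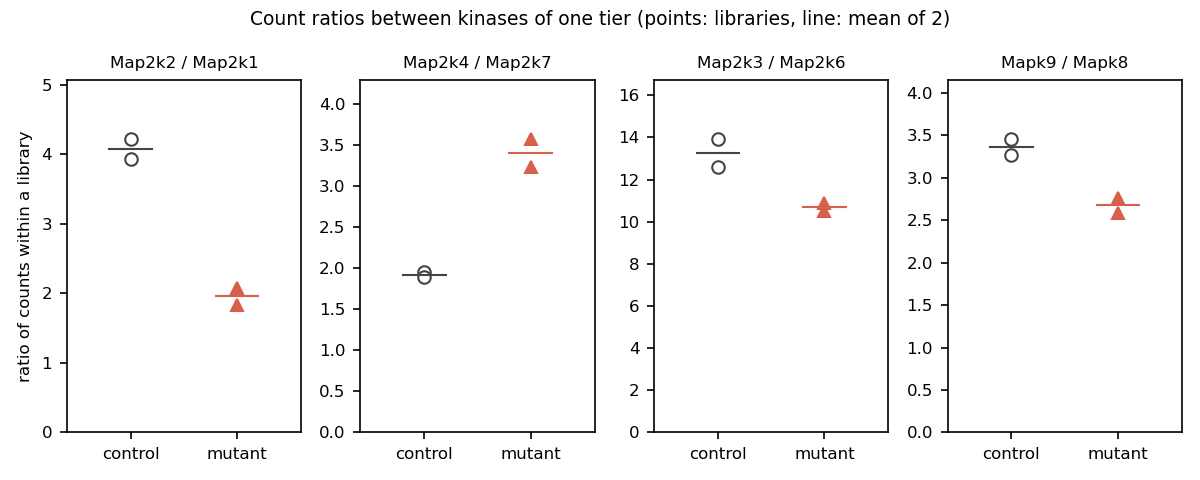
Ratios of counts between kinases of the same tier within each library; circles are control libraries, triangles mutant libraries, lines the means of 2, and each axis starts at 0. Map2k2 over Map2k1 lies near 4 in controls and near 2 in mutants, and Map2k4 over Map2k7 is the higher in mutants.

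In the MAP3K tier 8 of 13 genes were higher, 3 were lower and 2 did not pass, beside 28.3% higher and 29.2% lower of all genes. The median log2 fold change of the tier was 0.25. Map3k3 (MEKK3), which acts above the ERK5 and p38 branches, had 26.1 and 29.7 CPM in controls against 70.1 and 68.7 in mutants (log2 fold change 1.32 ± 0.08, adjusted p = 3.34e-10). Its close relative Map3k2 (MEKK2) had 21.8 and 24.6 CPM in controls against 37.5 and 42.2 in mutants (log2 fold change 0.78 ± 0.09, adjusted p = 1.32e-06). For both genes each mutant library was above each control. Map3k14, which encodes the NF-kappaB-inducing kinase NIK, had 2.19 and 2.66 CPM in controls against 7.78 and 8.65 in mutants (log2 fold change 1.76 ± 0.17, adjusted p = 1.24e-07). NIK carries the MAP3K name but is known for the alternative NF-kappaB pathway and not for a MAP kinase cascade. Map3k12 (DLK), a kinase above JNK, was scarce, with 27 and 19 counts in controls against 60 and 32 in mutants (log2 fold change 1.16 ± 0.27, adjusted p = 0.00128). Map3k5, the gene of the oxidative stress kinase ASK1, rose from 12.5 and 12.5 CPM to 20.1 and 22.7 (log2 fold change 0.77 ± 0.10, adjusted p = 4.58e-06), and its relative Map3k6 (ASK2) had 18.9 and 18.9 CPM in controls against 23.1 and 20.7 in mutants (0.22, adjusted p = 0.0442); the difference between them was not tested. The remaining relative, Map3k15 (ASK3), had 45 and 37 counts in controls against 50 and 48 in mutants and did not pass (0.45, adjusted p = 0.153), with 0.82 (0.026) without mutant replicate 1 and 0.13 (0.724) without mutant replicate 2.

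Smaller rises were found for Map3k1 (MEKK1, 78.6 and 87.8 CPM in controls against 96.8 and 102 in mutants, log2 fold change 0.25 ± 0.06, adjusted p = 0.00215) and for Map3k7 (TAK1, 99.7 and 104 against 113 and 113, log2 fold change 0.15 ± 0.05, adjusted p = 0.0244). Map3k11, Map3k10 and Map3k4 fell. Map3k11 (MLK3) went from 114 and 105 CPM to 73.8 and 66.9 (log2 fold change -0.64 ± 0.06, adjusted p = 2.05e-07), and Map3k10 (MLK2) from 42.9 and 37.7 to 36.5 and 29.9 (log2 fold change -0.27 ± 0.10, adjusted p = 0.0293). Map3k4 (MEKK4), known as the target of the Gadd45 stress proteins, went from 8.68 and 9.49 CPM to 7.10 and 5.28 (log2 fold change -0.52 ± 0.15, adjusted p = 0.00649). Map3k13 (LZK) had 1.99 and 2.20 CPM in controls against 1.70 and 1.59 in mutants and did not pass (-0.34, adjusted p = 0.243). Map3k8 and Map3k9 had 10 and 21 counts in all and were not among the 54. Calls on the small changes were not stable. Without control replicate 1, adjusted p was 0.0554 for Map3k1, 0.0996 for Map3k6, 0.201 for Map3k7 and 0.104 for Map3k10. Map3k6 also missed without control replicate 2 (0.176) and mutant replicate 1 (0.13, 0.389), and Map3k7 without mutant replicate 1 (0.131) and mutant replicate 2 (0.0849). Without mutant replicate 2, Map3k10 had -0.14 (0.295) and Map3k4 -0.35 (0.0806), against -0.43 and -0.78 without mutant replicate 1.

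Of the 5 MAP4K genes, whose kinases sit at the top of the JNK branch, 4 rose and Map4k1 fell. Among all genes 28.3% were higher and 29.2% lower. Map4k4, a kinase of the Ste20 family that also acts on the cytoskeleton, had 26.4 and 29.3 CPM in controls against 109 and 118 in mutants (log2 fold change 2.02 ± 0.07, adjusted p = 4.06e-13), a 4.06-fold rise on the fitted scale. Map4k3, known for its part in sensing amino acids, went from 3.25 and 2.80 CPM to 8.39 and 9.29 (log2 fold change 1.53 ± 0.16, adjusted p = 2.88e-07). Both genes were far above the control range in each mutant library. Map4k5 had 41.2 and 39.9 CPM in controls against 51.8 and 50.5 in mutants (log2 fold change 0.34 ± 0.07, adjusted p = 0.000777), and Map4k2 17.7 and 18.8 against 22.1 and 21.2 (log2 fold change 0.25 ± 0.09, adjusted p = 0.0235). Map4k1, the gene of the haematopoietic kinase HPK1, had 95.02 and 92.1 CPM in controls against 77.7 and 79.5 in mutants (log2 fold change -0.25 ± 0.06, adjusted p = 0.000973). Per kilobase of exon, Map4k1 stood at 30.4 ± 0.676 CPM in controls and 25.5 ± 0.425 in mutants, and Map4k4 at 2.91 ± 0.218 and 11.8 ± 0.689, so Map4k1 remained above Map4k4 in both groups on that scale. The Map4k1 call was lost under library totals alone (-0.12, adjusted p = 0.0872), and the Map4k2 call when any 1 library was left out (adjusted p from 0.0616 to 0.159).

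**Figure D3:**
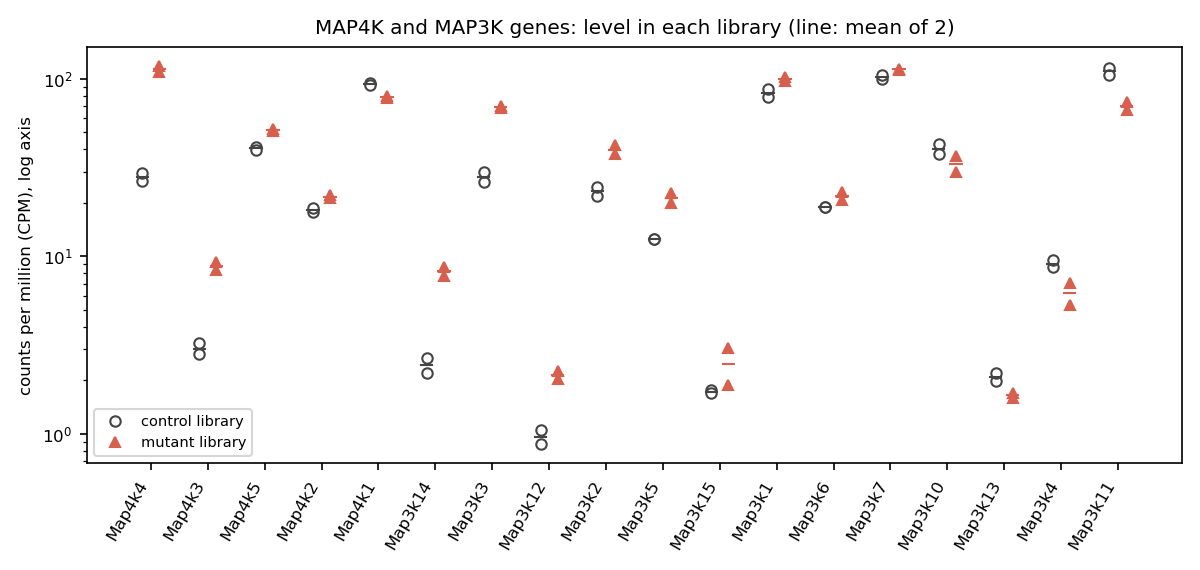
CPM (log axis) of the 5 MAP4K and 13 MAP3K genes in each library; circles are controls, triangles mutants, short lines the means of 2. Map4k4, Map4k3, Map3k14, Map3k3 and Map3k12 have mutant means at least 2-fold above their control means, while Map3k11 lies lower.

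The 10 MAP kinase phosphatases, the dual-specificity phosphatases whose known substrates are MAP kinases, held the largest fall among the 54 genes, that of Dusp8. They also held the largest rise, that of Dusp5, but its place among the 54 came only through its mutant counts. Dusp5, Dusp4, Dusp6, Dusp10 and Dusp16 rose, Dusp8, Dusp7 and Dusp1 fell, and Dusp9 and Dusp2 did not pass. Over all genes, 28.3% were higher and 29.2% lower. The promoters of the steepest riser and the steepest faller are shown, with that of Dusp1, which also fell and shares a motif with Dusp8. Each is the 250 bases before the gene start in RefSeq on GRCm38.p6, written 5′ to 3′ on the gene's strand, in lower case with matches of the searched motifs in capitals; the counts were made on another build (mm9), and only the sequence is used.
Dusp5 (chr19:53528895-53529144, plus strand): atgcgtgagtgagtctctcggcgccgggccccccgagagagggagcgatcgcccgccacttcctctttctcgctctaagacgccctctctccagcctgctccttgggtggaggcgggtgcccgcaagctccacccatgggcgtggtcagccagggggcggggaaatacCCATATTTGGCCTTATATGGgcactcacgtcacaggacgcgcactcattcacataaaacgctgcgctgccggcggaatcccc
Dusp8 (chr7:142095285-142095534, minus strand): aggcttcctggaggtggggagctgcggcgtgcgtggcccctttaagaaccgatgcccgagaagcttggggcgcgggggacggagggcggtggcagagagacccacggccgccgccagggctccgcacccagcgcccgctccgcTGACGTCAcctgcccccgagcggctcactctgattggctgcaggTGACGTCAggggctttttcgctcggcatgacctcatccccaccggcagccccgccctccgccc
Dusp1 (chr17:26508473-26508722, minus strand): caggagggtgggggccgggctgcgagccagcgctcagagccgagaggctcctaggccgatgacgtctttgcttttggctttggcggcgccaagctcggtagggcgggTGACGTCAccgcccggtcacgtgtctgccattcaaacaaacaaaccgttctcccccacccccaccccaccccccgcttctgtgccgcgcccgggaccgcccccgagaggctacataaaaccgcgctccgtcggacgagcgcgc
In Dusp5 the capitals mark 2 adjoining serum response factor boxes, with first bases at -82 and -72 from the start. In Dusp8 they mark 2 copies, and in Dusp1 1 copy, of the cyclic AMP response element TGACGTCA, with first bases at -107 and -63 in Dusp8 and at -143 in Dusp1. The serum response factor is known as a mediator of ERK-induced transcription, and the cyclic AMP response element as a binding site of CREB and ATF factors. Binding was not measured here, and a match is only a description of the letters.

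Promoter windows were found for 45 of the 54 genes, 55 windows in all, and were searched on both strands; no motif searched contains another. The serum response factor box was in 1.47% of all 32851 RefSeq windows, and 2 or more in 0.0183%; among these genes Dusp5 alone held it. TGACGTCA was in 1.55% of all windows, and 2 or more copies in 0.0304%; of these genes Dusp8 and Dusp1 held it. The GATA word AGATAA was in 2 of the 55 windows (9.99% of all windows), the Gfi1 core AAATCA in 9 (12.4%), the ETS word CCGGAAG in 3 (6.91%) and the AP-1 element TGANTCA in 3 (6.75%). Of the 21 windows of genes called higher, none held AGATAA and 2 held AAATCA; of the 17 windows of genes called lower, 1 and 5 did.

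Among the phosphatases that prefer ERK, the nuclear enzyme Dusp5 had 9 and 9 counts in controls against 135 and 60 in mutants, or 0.352 and 0.413 CPM against 5.10 and 3.82 (log2 fold change 3.57 ± 0.29). Both mutant libraries lay far above both controls, and differed from each other more than the controls did. Dusp4, which acts in the nucleus on ERK, JNK and p38, had 5 and 3 counts in controls against 31 and 17 in mutants, or 0.196 and 0.138 against 1.17 and 1.08 CPM (log2 fold change 2.71 ± 0.45). Dusp6, the cytoplasmic phosphatase of ERK, had 31 and 19 counts in controls against 63 and 41 in mutants, or 1.21 and 0.871 against 2.38 and 2.61 CPM (log2 fold change 1.23 ± 0.26, adjusted p = 0.000669). All 3 genes were scarce in controls, and the values of Dusp5 and Dusp4 are given as a description, with no p, since the mutant counts brought them over the limit. Summed hepatoblast, megakaryocyte, granulocyte, macrophage, endothelial, mesenchymal and mast cell markers were all higher in the same mutant libraries, as given above. Not every marker rose: of the endothelial genes, Pecam1 and Kdr did, while Cdh5 (0.09), Stab2 (0.15) and Lyve1 (-0.33) did not pass. The part of such cells in these rises was not tested. Dusp7, also cytoplasmic and directed at ERK, went the other way, from 23.6 and 27.1 CPM to 17.3 and 15.8 (log2 fold change -0.61 ± 0.10, adjusted p = 3.75e-05). Dusp9, the remaining gene of the cytoplasmic group, had 8.80 and 9.17 CPM in controls against 10.1 and 9.93 in mutants (log2 fold change 0.16 ± 0.12, adjusted p = 0.259).

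The phosphatases that prefer JNK and p38 were likewise split. Dusp8 had 5.24 and 5.09 CPM in controls against 1.02 and 1.08 in mutants (log2 fold change -2.30 ± 0.21, adjusted p = 8.58e-08), the only fall of at least 2-fold among the 54 genes. Dusp16 rose from 29.1 and 30.2 CPM to 45.7 and 45.2 (log2 fold change 0.62 ± 0.08, adjusted p = 2.78e-06), and Dusp10 from 4.07 and 3.39 to 6.08 and 6.17 (log2 fold change 0.71 ± 0.16, adjusted p = 0.0012). In each case the groups were apart. Dusp1, the broadly acting and rapidly induced founder of the family, fell from 33.98 and 31.1 CPM to 24.6 and 22.7 (log2 fold change -0.46 ± 0.09, adjusted p = 0.000218). Dusp2, another nuclear and inducible enzyme, had 8.80 and 6.47 CPM in controls against 6.31 and 5.85 in mutants and did not pass (log2 fold change -0.33 ± 0.16, adjusted p = 0.0873). Per kilobase of exon, the order in controls ran from Dusp1 (9.83 ± 0.608 CPM) and Dusp7 (7.56 ± 0.743) to Dusp5 (0.155 ± 0.0174) and Dusp4 (0.0608 ± 0.0150), and in mutants Dusp1 had 7.14 ± 0.402, Dusp16 5.83 ± 0.0436, Dusp7 4.93 ± 0.300, Dusp5 1.80 ± 0.367 and Dusp4 0.411 ± 0.0231. Apart from Dusp5 and Dusp4, which are described without a p, the calls in this group held under all 12 alternative settings. These were the calls of Dusp6, Dusp10, Dusp16, Dusp8, Dusp7 and Dusp1. Dusp2 had -0.54 without control replicate 2 and -0.09 without control replicate 1.

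**Figure D4:**
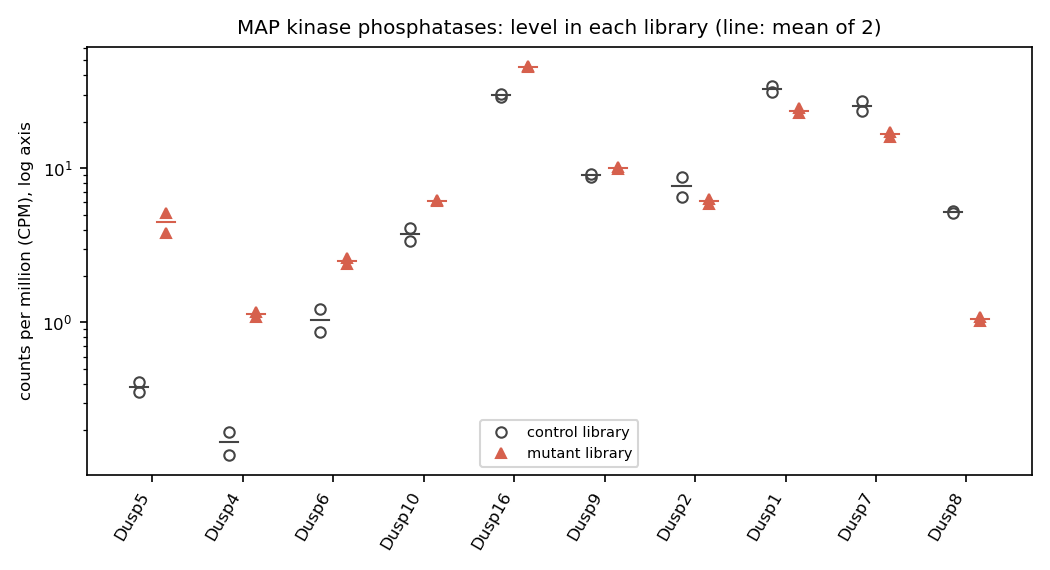
CPM (log axis) of the 10 MAP kinase phosphatase genes in each library; circles are controls, triangles mutants, short lines the means of 2. Dusp5 and Dusp4 lie below 0.5 CPM in both controls and above 1 CPM in both mutants, and Dusp8 shows the opposite order.

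The other dual-specificity phosphatases, several of which act on substrates outside MAP kinase signalling, numbered 7, of which 1 rose, 2 fell and 4 did not pass. The shares over all genes were 28.3% higher and 29.2% lower. Dusp3 (VHR), a small phosphatase reported to act on ERK and JNK, had 10.3 and 9.86 CPM in controls against 35.03 and 34.5 in mutants (log2 fold change 1.78 ± 0.09, adjusted p = 2.89e-11), with libraries of a group close together and the groups far apart. Dusp28 had 5.32 and 4.26 CPM in controls against 3.74 and 3.05 in mutants (log2 fold change -0.48 ± 0.18, adjusted p = 0.0337), and Dusp12 36.02 and 33.4 against 31.8 and 27.5 (log2 fold change -0.22 ± 0.09, adjusted p = 0.0423). Neither fall was stable: leaving out control replicate 1 or mutant replicate 2 gave adjusted p of 0.284 and 0.172 for Dusp28 (-0.31 and -0.36) and 0.132 and 0.359 for Dusp12 (-0.17 and -0.12), which had -0.33 without mutant replicate 1. Dusp11, which acts on RNA, had 156 and 159 CPM in controls against 155 and 162 in mutants (0.01, adjusted p = 0.911). The other genes that did not pass were Dusp23 (0.01), Dusp19 (0.23) and Dusp18 (0.42, on 23 and 13 counts in controls); Dusp19 passed as higher without mutant replicate 2 (0.33, adjusted p = 0.0333) and had 0.09 (0.601) without mutant replicate 1.

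Of the 5 Sprouty and Spred genes, Spry2 and Spred1 rose and Spry1, Spry4 and Spred2 did not pass. Over all genes, 28.3% were higher and 29.2% lower. Spry2 had 36 and 32 counts in controls against 55 and 47 in mutants, or 1.41 and 1.47 against 2.08 and 2.99 CPM (log2 fold change 0.77 ± 0.25, adjusted p = 0.016). Mutant replicate 2 was the higher of the mutant pair, and the groups did not overlap. Spred1, whose protein recruits the Ras brake Nf1 to the membrane, had 37.3 and 40.6 CPM in controls against 46.7 and 47.5 in mutants (log2 fold change 0.27 ± 0.08, adjusted p = 0.00548). Spred2 had 16.1 and 16.05 CPM in controls against 14.5 and 13.49 in mutants (log2 fold change -0.19 ± 0.10, adjusted p = 0.107), Spry1 6.26 and 4.95 against 5.06 and 4.52 (-0.22), and Spry4 4.46 and 4.86 against 4.61 and 2.99 (-0.24), the last 2 with overlapping groups. The Spry2 call was lost when control replicate 1 (adjusted p = 0.0666) or mutant replicate 2 (0.54, adjusted p = 0.13) was left out, and that of Spred1 without control replicate 1 (adjusted p = 0.068). Spry4 passed as lower without mutant replicate 1 (-0.63, adjusted p = 0.0418), but its value without mutant replicate 2 was -0.0065 (0.981). Spred3 had 35 counts and was not among the 54.

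Other genes of the pathway were read from a list of 79, of which 78 were in the table and 66 were tested. Of these, 28 were higher, 15 lower and 23 did not pass, beside the 28.3% and 29.2% of all genes. With library totals alone 39 were higher and 11 lower, beside 38.9% and 19.4% of all genes. The median log2 fold change of the tested list was 0.13. Among the GTPase-activating proteins that act as brakes on Ras, 7 of 9 genes were higher, and none was lower; Rasa1 did not pass (0.10). Rasal1, counted among the 7, had 7 and 4 counts in controls against 317 and 166 in mutants. Its levels were 0.274 and 0.183 CPM in controls against 11.98 and 10.6 in mutants (log2 fold change 5.58 ± 0.25). It passed the filter on low counts only through the mutant libraries, where it is high, so its values are a description, with no p. Rasal2 rose from 7.78 and 8.53 CPM to 17.3 and 19.5 (log2 fold change 1.17 ± 0.11, adjusted p = 1.34e-07) and Rasa2 from 9.74 and 11.6 to 17.9 and 17.9 (log2 fold change 0.76 ± 0.11, adjusted p = 1.44e-05). Smaller rises were those of Dab2ip (0.70), Rasal3 (0.50), Rasa3 (0.45) and the neurofibromin gene Nf1 (0.31, adjusted p = 0.00782, but 0.118 without mutant replicate 2, where the value was 0.22).

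Upstream of the cascade, 8 of 18 tested genes for adaptors, Ras proteins, exchange factors and Raf kinases rose, 4 fell and 6 did not pass. The shares over all genes were 28.3% higher and 29.2% lower. The Ras genes differed in direction: Hras1 went from 306 and 321 CPM to 165 and 176 (log2 fold change -0.88 ± 0.05, adjusted p = 1.29e-10), Nras went from 225 and 245 to 286 and 287 (log2 fold change 0.29 ± 0.05, adjusted p = 8.28e-05), and Rras2 did not pass (log2 fold change 0.19 ± 0.08, adjusted p = 0.0543). Among the Raf kinases, which act as the MAP3Ks of the ERK branch, Araf fell (-0.39 ± 0.06) and Braf rose (0.41 ± 0.12; adjusted p = 0.0083, but 0.0958 when control replicate 1 and 0.0615 when mutant replicate 1 was left out). The adaptor gene Gab2 rose from 70.5 and 72.5 CPM to 157 and 161 (log2 fold change 1.15 ± 0.05, adjusted p = 8.45e-12), while Gab1 (-0.25) and the phosphatase gene Ptpn11 (-0.25), whose protein binds both adaptors, fell; the Gab1 call was lost under library totals alone (adjusted p = 0.0738). Rasgrp2, an exchange factor for Rap proteins known from platelets, went from 8.95 and 7.02 CPM to 23.7 and 20.7 (log2 fold change 1.47 ± 0.12, adjusted p = 2.52e-08), alongside the megakaryocyte markers above, whose part was not tested.

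Downstream, the kinases that MAP kinases switch on were mixed, with 4 of 10 higher, 3 lower and 3 that did not pass. All genes gave 28.3% higher and 29.2% lower. Rps6ka2, of the ribosomal S6 kinase family that ERK activates, had 18 and 16 counts in controls against 58 and 28 in mutants (log2 fold change 1.49 ± 0.29, adjusted p = 0.000307). Its relatives Rps6ka1 (0.38 ± 0.05) and Rps6ka3 (0.29 ± 0.06) also rose, and the p38-activated kinase gene Mapkapk3 rose (0.39 ± 0.07). Rps6ka4, the gene of the nuclear kinase MSK2, fell from 75.7 and 66.9 CPM to 39.1 and 41.2 (log2 fold change -0.83 ± 0.08, adjusted p = 8.45e-08). The translation factor kinase gene Mknk2 (-0.55 ± 0.04) and Mapkapk5 (-0.52 ± 0.06) also fell. Of 10 tested scaffold genes, 2 rose (Tab2 0.51, whose protein joins TAK1 to ubiquitin chains, and Spag9 0.27, a JNK scaffold), 2 fell by small amounts (Tab1 -0.16 and Mapkap1 -0.16) and 6 did not pass. Neither small fall held without control replicate 1 (adjusted p = 0.341 and 0.0687), mutant replicate 1 (0.0806 and 0.135) or mutant replicate 2 (0.201 and 0.0572), nor under library totals alone (0.751 and 0.745).

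Among transcription factors and genes known to be induced by ERK, 7 of 19 tested were higher, 6 were lower and 6 did not pass. Over all genes the shares were 28.3% higher and 29.2% lower. Srf, which encodes the serum response factor, fell from 127 and 122 CPM to 75.8 and 73.2 (log2 fold change -0.74 ± 0.05, adjusted p = 4.69e-09), whereas the genes of its ERK-regulated partners Elk1 (0.47 ± 0.13) and Elk3 (0.78 ± 0.28) rose. The AP-1 genes fell in part: Junb (-0.57 ± 0.09) and Jund (-0.70 ± 0.15) were lower, Fosl2 was higher (19 and 10 counts in controls against 55 and 36 in mutants, log2 fold change 1.82 ± 0.31, adjusted p = 7.62e-05), and Jun did not pass (0.46). Fos, counted among the 6 lower, had 21 and 15 counts in controls against 6 and 7 in mutants (log2 fold change -1.28 ± 0.46). It passed the filter on low counts through the control libraries, where it is high, so its values are a description, with no p. Mef2c, a target of ERK5 and p38, rose from 13.3 and 13.99 CPM to 36.1 and 36.3 (log2 fold change 1.41 ± 0.08, adjusted p = 3.44e-10), and its relative Mef2d fell (-0.51 ± 0.07). The induced genes Phlda1 (1.73 ± 0.31) and Ier3 (0.73 ± 0.12) rose, Ier2 fell (-0.26 ± 0.08), and Myc changed little (0.13 ± 0.05, adjusted p = 0.0328). Egr1, Egr2, Egr3, Fosb, Fosl1 and Etv4 had too few counts to be tested. Without mutant replicate 1, the calls of Elk1 (0.37), Elk3 (0.67) and Myc (0.09) were lost. They were also lost without control replicate 2, where the values were 0.29, 0.48 and 0.06. Ier2 lost its call without mutant replicate 2 (-0.16). With a library left out, the value of Fos ran from -1.71 (without mutant replicate 2) to -0.76 (without mutant replicate 1).

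**Figure D5:**
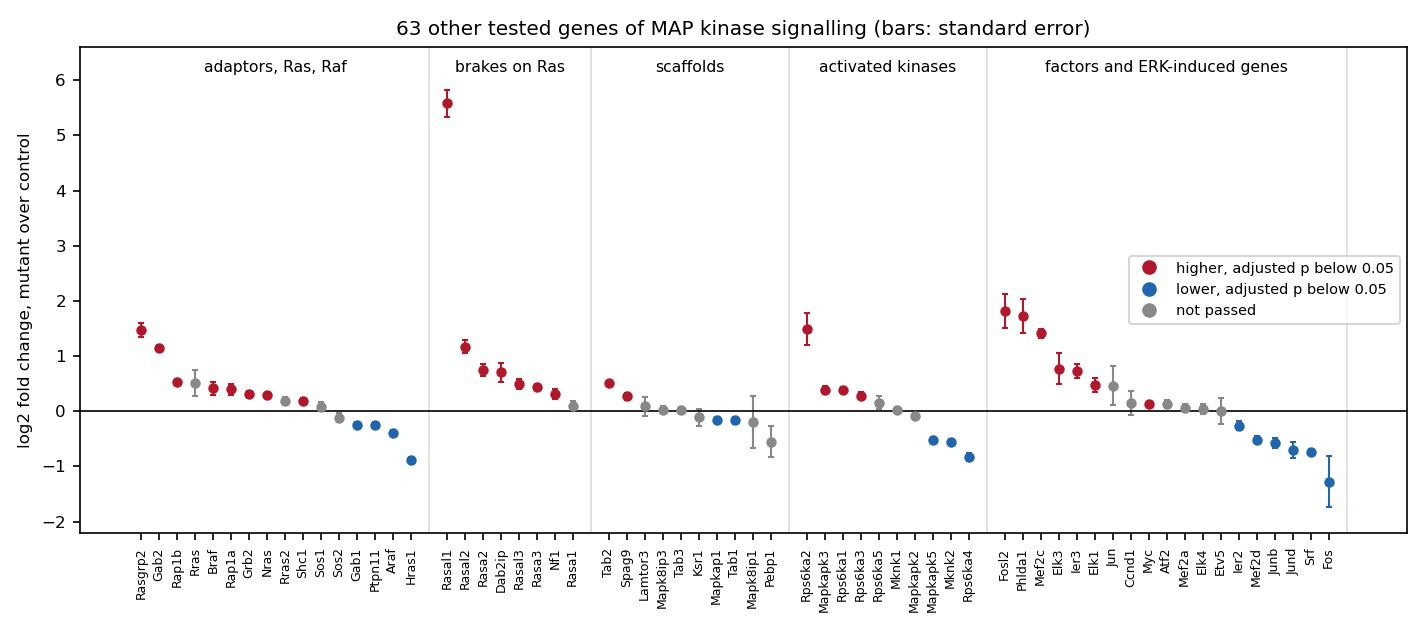
Mutant against control log2 fold changes of 63 of the 66 tested genes of the wider pathway, by group; points are the fitted values, bars the standard errors, red and blue mark genes that passed higher or lower, grey those that did not. In the group of brakes on Ras, 7 points lie above 0 and passed. The highest is Rasal1 at 5.58, which passed the low count filter only through the mutant libraries. The lowest point of the figure, Fos at -1.28, passed that filter through the control libraries.

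The authors' deposited table lists all 54 genes with fold changes of mutant over wild type, and 37 of them have an adjusted p below 0.05 there, 28 higher and 9 lower. Of all its rows, 37.7% and 17.7% are higher and lower at that threshold. Of the 36 genes called here, 31 were called in the authors' deposited table as well, with the same sign for all 31. The genes called only here were Mapk9, Map3k10, Map4k1, Dusp12 and Dusp28, all of them lower. The median log2 fold change in the authors' deposited table was 0.28 over these genes and 0.15 over its 13234 rows. For Mapk14 and Map4k4 the authors' deposited table gives -0.24 and 2.16, the same as found here under library totals alone. It compares the same groups and is not an independent comparison.

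The remaining 16 genes fell under the limit of 40 counts. Dusp22 and Spred3, with 39 and 35 counts, were near the limit in total: Dusp22 had 4 and 9 in controls against 18 and 8 in mutants, and Spred3 8 and 4 against 12 and 11. The p38 beta gene Mapk11 had 2 and 3 in controls against 15 and 2 in mutants, so that mutant replicate 1 held most of its reads. Dusp14 and Dusp27 had 10 and 7 counts in all, Dusp15 had 4, Dusp26 had 2, and Dusp13 and Dusp21 had none in any library, which allows up to 3 counts in each, for counting error only.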

How the data were processed

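Libraries were made with Illumina's mRNA sequencing kit, per the labels' protocols. The submitters' processing notes name FastQC, Bowtie, edgeR and the mouse build mm9, without versions; the annotation, counter, use of strand and treatment of reads with several matches are not given in the sources used here. Genes with near-identical copies or overlapping neighbours are therefore uncertain. The deposited table holds raw counts per gene, and library totals ran from 15053229 to 26892375. The authors' deposited comparison table gives log2 fold changes and FDR-adjusted p-values. Columns named for wild type in the count table were read as the control libraries of the same number.

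Libraries of a group differed beyond sampling noise (scaled median chi-square 3.02 for controls and 2.45 for mutants). From the counts, 12 rows without values were left out. Genes passing filterByExpr were scaled by TMM and tested with edgeR 4.0.16 (robust quasi-likelihood fit, R 4.3.3), adjusted over 13140 genes by the Benjamini-Hochberg method; the standard error is the size of the log2 fold change divided by the square root of F. The fit was tested on simulated data with 200 changed genes. CPM per kilobase used the exon lengths of GENCODE M21 on GRCm38, an approximation. Promoters are from RefSeq. Alternatives were other scalings, filters, DESeq2 1.42.0, limma 3.58.1 (voom), a replicate block and leaving out each library. Genes described in full were a fixed set of core kinases and inhibitors plus, per role, up to 3 called genes with the largest rise and 3 with the largest fall. A few genes are counted in the totals but are not reported here by name. The genes and lists were chosen with earlier results of these data known. RNA was pooled before library making, so p-values cover the spread between 2 pools per group.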

Additional observations from a re-analysis of the deposited data

How the results depend on the processing

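Counts of calls depended on threshold and scaling. With a change of at least 2-fold also required, 9 of the 54 genes were higher and 1 lower, and 8 and 1 of the wider pathway. Dusp5 and Dusp4 are among the 9, Rasal1 is among the 8, and the 1 fall of the wider pathway is Fos. Each of these genes was kept or tested through the group where it is high, which in part sets its direction. All genes gave 11.7% and 1.8%. Under library totals alone 9 of the 54 were lower, beside 19.4% of all genes. With 1 library left out, the median log2 fold change ran from 0.11 to 0.14 over the 54 genes, and from 0.01 to 0.02 over all genes. DESeq2 called 18 of the 54 higher and 11 lower, beside 2723 and 3194 of 13140 genes. Of the 36 genes called, 24 were called under all 12 alternative settings. Dusp5 and Dusp4 are among these, though they reached the count limit only through the mutant libraries. The sign turned for genes that had not passed: without the low count filter for Dusp23 (-0.026) and Dusp11 (-0.031), and under library totals for Mapk7 (0.0076). With a library left out, values ran from -0.052 to 0.15 for Map2k5 (lowest without mutant replicate 1), from -0.088 to 0.15 for Dusp23 and from -0.018 to 0.042 for Dusp11 (both below 0 without control replicate 1 and without mutant replicate 2, the lowest); the cause was not tested. Where 1 library was left out, the lone library of its group was assumed to vary like the others. Depth limits the scarcest genes, Dusp4 and Dusp18, with 56 and 79 counts in all.

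With the replicate number as a block, 25 of the 54 genes were higher and 15 lower, and 30 and 15 of the wider pathway. Of 13140 genes, 4135 were higher and 4267 lower in that fit. Same-numbered libraries deviated together (correlation 0.466 over the 8343 genes averaging 10 CPM or more), but there are only 2 numbers and nothing in the labels ties them to a shared day or litter.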
